A study of Mus musculus with 6 samples.

Results

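Prss8, matriptase (St14), their relatives and inhibitors, the epithelial sodium channel and the receptor F2rl1 were followed in epidermal RNA of newborn mice. The set holds 10 of the 55487 genes in the deposited tables, found by matching Ensembl identifiers to the mouse symbols Prss8, St14, Tmprss13, Spint1, Spint2, Spink5, Scnn1a, Scnn1b, Scnn1g and F2rl1. The set was chosen by function, with earlier results of these data known, and each of the 10 symbols matched 1 row. The samples were 3 Znf750 cKO libraries and 3 Control libraries of back skin epidermis at postnatal day 0, and the series asks about the part Znf750 plays in the development of skin. Znf750, mouse symbol Zfp750, encodes a nuclear zinc finger protein that drives the late steps of keratinocyte differentiation. Both groups were handled alike per the labels' protocols, with dispase to lift the epidermis, trypsin to free the cells, poly(A) selection and 100-nucleotide single reads. The labels write one group only as Znf750 cKO and the other only as Control. The sources used here do not give the deleted allele, any Cre driver, the strain, the sex or the number of pups behind each library. Nothing in the labels says that the 3 libraries of a group came from separate animals, so the p-values measure the spread between these libraries.

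Prostasin, the product of Prss8, is a serine protease held on the cell surface by a lipid anchor, and matriptase is a serine protease that spans the membrane. The proteases are made as inactive zymogens and activate each other at the surface of epithelial cells, where the Kunitz inhibitors encoded by Spint1 and Spint2 shut them off. Mouse epidermis that lacks prostasin or matriptase fails to form a tight water barrier and newborns dehydrate. Prostasin raises the activity of the epithelial sodium channel, a channel built from the alpha, beta and gamma subunits that Scnn1a, Scnn1b and Scnn1g encode, and matriptase can cleave and activate protease-activated receptor 2, the product of F2rl1.

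The targeted gene was at 0.99, 0.83 and 1.47 FPKM in the Znf750 cKO libraries, against 44.8, 32.0 and 34.9 FPKM in the Control libraries, which fits the labels. FPKM is a read count scaled by transcript length and library size, so levels of different genes can be set side by side. The steps between low FPKM values place the depth at an estimated 23.0 to 35.4 M reads (megareads) in Znf750 cKO and 21.5 to 28.4 M in Control libraries. Of 15 markers of suprabasal and granular keratinocytes, 1 rose (Ivl, 3.41-fold higher) and 2 fell (Casp14 and Scel, at 0.399 and 0.506 of the Control mean). The 15 summed to 26200 to 36100 FPKM in Znf750 cKO and 22400 to 35500 FPKM in Control, with Krt10 and Krt1 the largest parts. Flg, Flg2 and Cdsn were also lower with groups apart, at 0.545, 0.529 and 0.51 of the Control mean, but did not pass. The rest of the 15 overlapped between the groups. Of 7 basal markers 1 rose (Itgb4, 1.59-fold higher). Krt14, Col17a1 and Itga6 were also higher with groups apart, at 1.29, 1.44 and 1.47 of the Control mean, but did not pass. Krt5, Krt15 and Trp63 overlapped between the groups. The keratinocyte keratins Krt1, Krt5, Krt10 and Krt14 each averaged 5268 FPKM or more in both groups, which fits the epidermal label. Markers of leukocytes differed. Of 11 such markers 9 could be tested and 8 fell, and their summed level was 15.3 to 23.2 FPKM in Znf750 cKO, against 96.1 to 160 FPKM in Control. None of the 11 was at 0 in all libraries of a group. Krt8 and Krt18 rose among 4 markers of simple epithelia, with a summed level of 214 to 300 FPKM in Znf750 cKO, against 11.6 to 15.0 FPKM in Control. Krt8 makes up most of that difference, at 241 ± 40.4 FPKM in Znf750 cKO and 3.45 ± 0.282 FPKM in Control. Krt18 stood at 3.71 ± 0.825 FPKM in Znf750 cKO and 1.07 ± 0.347 FPKM in Control. Krt7 and Krt19 overlapped between the groups and summed to 9.34 to 13.1 FPKM in Znf750 cKO and 7.72 to 9.98 FPKM in Control. Of 6 Merkel cell markers 2 were tested and Chga fell, with a summed level of 3.19 to 4.90 FPKM in Znf750 cKO, against 16.3 to 24.6 FPKM in Control. Chga makes up most of that difference, since the other 5 summed to 2.15 to 3.58 FPKM in Znf750 cKO and 2.99 to 4.10 FPKM in Control. Among these, Atoh1, Sox2, Isl1 and Piezo2 overlap between the groups. Krt20 was lower with groups apart, at 0.76 ± 0.18 FPKM in Znf750 cKO and 1.24 ± 0.207 FPKM in Control, and did not pass (limma adjusted p = 0.32). Of 8 hair follicle markers Lhx2 rose and Krt79 and Krt71 fell, with a summed level of 991 to 1080 FPKM in Znf750 cKO, against 1030 to 1460 FPKM in Control. Of 5 erythroid markers 3 were tested and Hba-a2 fell, with a summed level of 6.92 to 11.1 FPKM in Znf750 cKO, against 19.6 to 52.7 FPKM in Control. Of 7 fibroblast markers 4 were tested and none passed, with a summed level of 214 to 265 FPKM in Znf750 cKO, against 295 to 423 FPKM in Control. Vim makes up most of that difference, at 89.1 ± 14.0 FPKM in Znf750 cKO and 192.6 ± 62.6 FPKM in Control. The other fibroblast markers overlapped between the groups, with Dcn at 141.5 ± 32.3 FPKM in Znf750 cKO and 143.2 ± 14.9 FPKM in Control. No marker of mast cells, melanocytes or endothelium and no mitochondrial mRNA passed. The part of these marker differences in the results on the 10 genes was not tested. In such bulk RNA, fewer cells of a type and less RNA per cell cannot be told apart.

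All 10 genes were detected in each library, from 1.18 FPKM for Scnn1a in a Znf750 cKO library to 175 FPKM for Spint2. With the longest coding transcript of each gene, these levels stand for an estimated 99 to 8478 reads per gene and library. All 10 passed the filter of at least 1 FPKM in at least 3 libraries. Differences were tested with limma on log2(FPKM + 1) over all 13688 genes that passed it, and a gene is said to have risen or fallen at a Benjamini-Hochberg adjusted p under 0.05. A log2 change is Znf750 cKO minus Control on that scale, which understates the change of genes at a few FPKM.

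Scnn1a and Prss8 fell in Znf750 cKO epidermis, and none of the 10 rose. That is 2 of 10 members called, or 20%, where 4.22% of all tested genes were called and 3.10% were called lower. The other 8 did not pass. The groups did not overlap in 5 of the 10 (50%), of which 4 were lower and 1 higher in Znf750 cKO, while 28.0% of all tested genes had groups apart. The median log2 change of the 10 was -0.15, beside a median of -0.08 over all tested genes. Of the 10 changes 7 were negative and 3 positive, where 62.2% of all tested genes had a negative change. With 3 libraries against 3, an exact permutation test of a single gene cannot give a two-sided p below 0.10, and the 5 genes whose groups lay apart each reached that value.

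**Figure D1:**
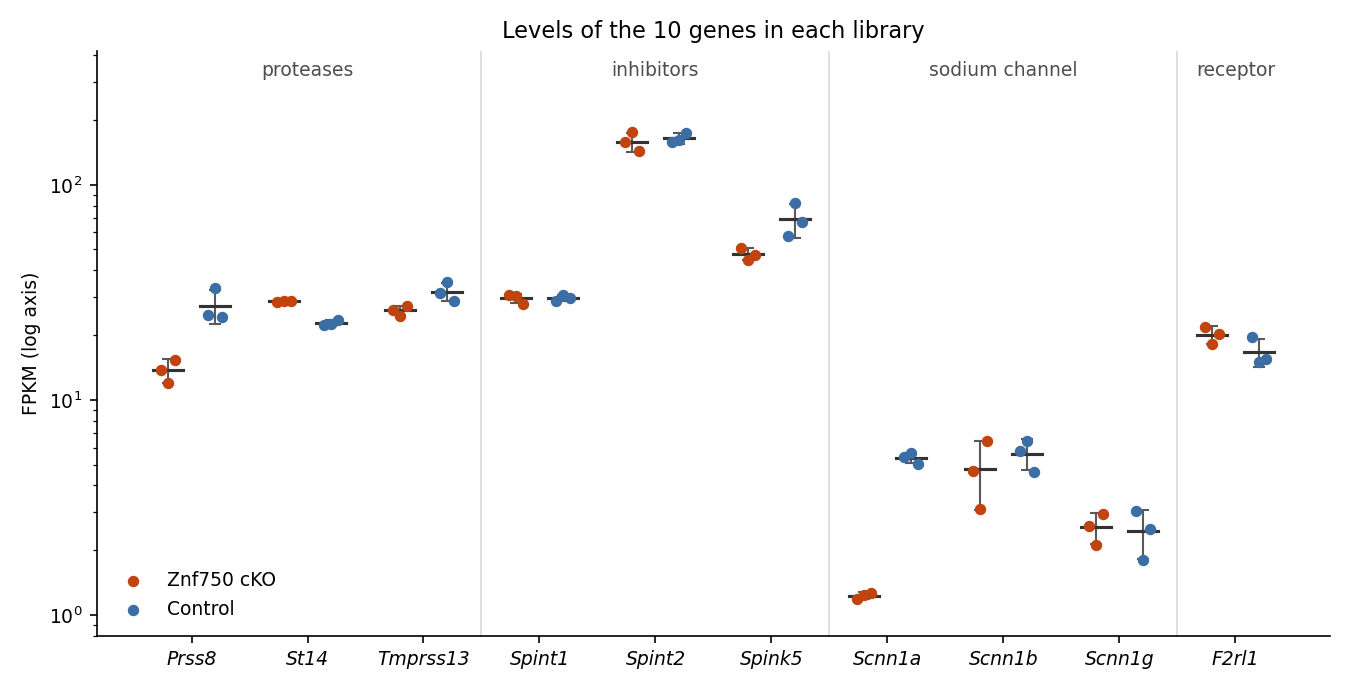
FPKM of each of the 10 genes in every library on a log axis, Znf750 cKO in red to the left of Control in blue. Points are libraries, horizontal lines are means and bars are SDs over 3 libraries. Scnn1a lies between 1.18 and 1.27 FPKM in Znf750 cKO and between 5.05 and 5.66 FPKM in Control, and the Prss8 groups are also apart.

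Scnn1a, the alpha subunit of the sodium channel, changed most of the 10. It read 1.18, 1.23 and 1.27 FPKM in the Znf750 cKO libraries, against 5.42, 5.66 and 5.05 FPKM in the Control libraries. The 3 Znf750 cKO values lie close together and all lie far under the lowest Control value. The mean was 1.23 ± 0.0451 FPKM in Znf750 cKO and 5.38 ± 0.307 FPKM in Control (SD, n = 3 each), a level 4.38-fold lower in Znf750 cKO. On the log2 scale the change was -1.52 (SE 0.14, 95% interval -1.84 to -1.19, limma adjusted p = 0.0024), the 28th smallest p among all tested genes. Scnn1a (ENSMUSG00000030340) lies on the plus strand of chromosome 6, at 125320659 to 125344943 on GRCm38. It overlaps no other annotated gene.

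The beta and gamma subunits did not pass. Scnn1b read 4.68, 3.12 and 6.46 FPKM in Znf750 cKO, against 5.80, 6.44 and 4.64 FPKM in Control. These groups overlap widely, and the log2 change of -0.24 had a 95% interval of -0.76 to 0.29 (limma adjusted p = 0.61). Scnn1g read 2.59, 2.12 and 2.94 FPKM in Znf750 cKO, against 3.04, 1.79 and 2.52 FPKM in Control. Its log2 change was 0.05, with a 95% interval of -0.39 to 0.49 (adjusted p = 0.93). The interval of Scnn1a lies below both of these intervals.

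Since FPKM is per length, the 3 subunits can be read as parts of a whole. Scnn1a made up 14.0%, 19.0% and 11.9% of their summed FPKM in the Znf750 cKO libraries, against 38.0%, 40.7% and 41.4% in the Control libraries. The ratio of Scnn1a to Scnn1b was 0.252, 0.394 and 0.197 in Znf750 cKO, against 0.934, 0.879 and 1.09 in Control. Alpha and beta transcripts were thus near parity in Control, while beta transcripts were in excess in each Znf750 cKO library. The summed level of the 3 subunits was 8.45, 6.47 and 10.7 FPKM in Znf750 cKO, against 14.3, 13.9 and 12.2 FPKM in Control. In level, Scnn1a was the lowest of the 10 genes in Znf750 cKO, under Scnn1g with no overlap between their libraries. In Control it overlapped Scnn1b and stood above Scnn1g.

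**Figure D2:**
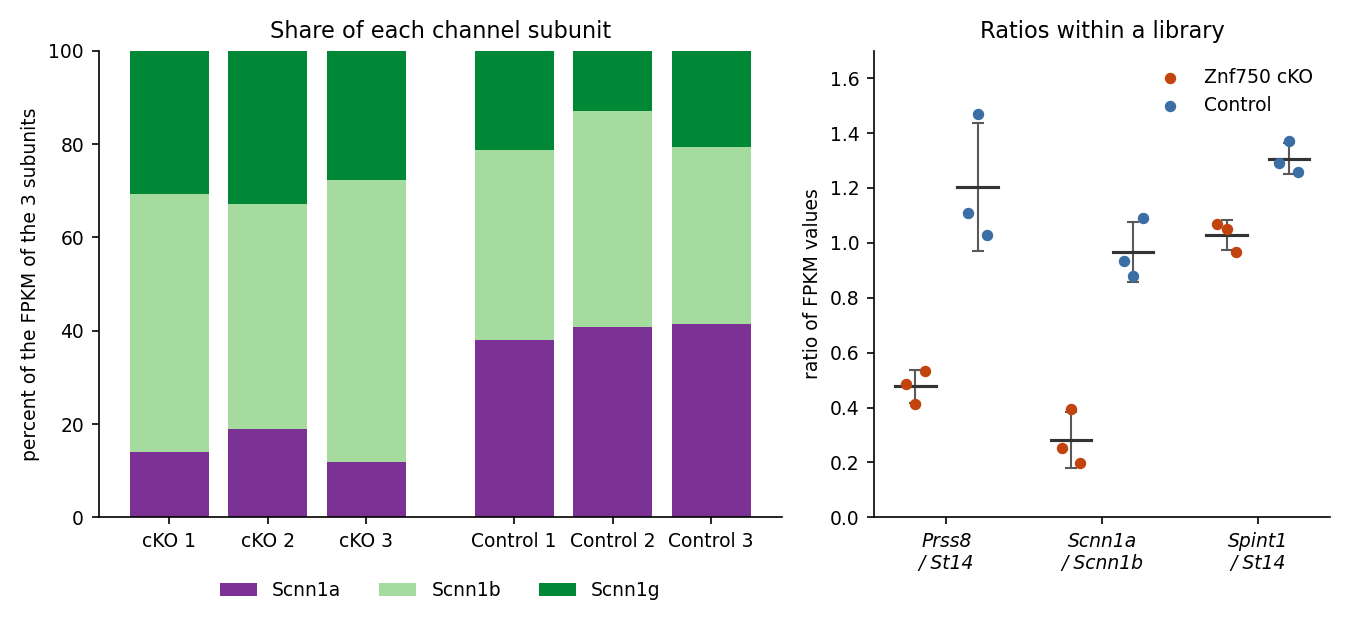
Left, the share of Scnn1a, Scnn1b and Scnn1g in their summed FPKM, in percent, for each library, with Znf750 cKO libraries left of Control libraries. Right, ratios of FPKM values within a library, with points for libraries, lines for means and bars for SDs over 3 libraries. Scnn1a holds 11.9% to 19.0% of the sum in Znf750 cKO and 38.0% to 41.4% in Control, and the 3 ratios shown have groups that lie apart.

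Scnn1g and Scnn1b follow each other on the plus strand of chromosome 7, 96562 bases apart, while Scnn1a lies on another chromosome. Promoters of 4 of the 10 genes were read from the RefSeq table for GRCm38.p6, each covering 250 bases before to 50 bases after the annotated start. Those of the neighbouring subunit genes are shown here as the starts of the channel genes that did not pass, Scnn1b at chr7:121864788-121865087 and Scnn1g at chr7:121734229-121734528, both on the plus strand. Capitals mark a match to a searched motif.
Scnn1b: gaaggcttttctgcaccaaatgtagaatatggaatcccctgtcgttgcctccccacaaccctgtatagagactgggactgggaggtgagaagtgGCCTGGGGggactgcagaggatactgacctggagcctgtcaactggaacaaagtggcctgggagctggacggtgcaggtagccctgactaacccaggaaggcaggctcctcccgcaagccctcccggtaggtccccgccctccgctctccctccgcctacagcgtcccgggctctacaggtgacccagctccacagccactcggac
Scnn1g: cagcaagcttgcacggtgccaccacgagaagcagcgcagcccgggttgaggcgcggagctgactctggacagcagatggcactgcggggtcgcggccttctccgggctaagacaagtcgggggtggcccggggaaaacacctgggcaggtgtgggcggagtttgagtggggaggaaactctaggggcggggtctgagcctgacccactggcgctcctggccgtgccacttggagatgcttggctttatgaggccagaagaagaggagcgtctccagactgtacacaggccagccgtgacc

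The motifs searched on both strands were CCNNAGGC, described for binding sites of human ZNF750, TGANTCA of AP-1 factors, and AACCGGTT of grainyhead factors. The capitals in the Scnn1b promoter are a reverse-strand match to CCNNAGGC that begins 156 bases before the start, and Scnn1g has no match to any of the 3. Of 32851 promoters of the same length, 24.1% hold a match to CCNNAGGC, 7.81% to TGANTCA and 0.146% to AACCGGTT. The Spint1 promoter holds 1 match to TGANTCA and the Spint2 promoter none to any of the 3. Promoters of the rest of the set, Spink5 among them, were not searched, so their matches are not known here. A match is a stretch of letters and says nothing of binding.

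Among the proteases, Prss8 fell. It read 13.8, 11.9 and 15.4 FPKM in Znf750 cKO, against 24.9, 33.1 and 24.2 FPKM in Control. The highest Znf750 cKO library lies under the lowest Control library, and Control replicate 2 is the highest of its group. The log2 change was -0.94 (SE 0.15, 95% interval -1.29 to -0.59, limma adjusted p = 0.018). A blocked fit, with the replicate number as a term, gave an adjusted p of 0.055. The call was also lost without Znf750 cKO replicate 1 (0.079), without Control replicate 1 (0.052), without Control replicate 2 (0.0545) and with no filter on low values (0.095). Prss8 (ENSMUSG00000030800) lies on the minus strand of chromosome 7, at 127925716 to 127930104 on GRCm38. It shares 122 of its 1852 exon bases with Kat8 of the other strand, and the kit is not stated to mark strand, so reads of these bases cannot be told apart. Kat8, a histone acetyltransferase gene, stood at 15.9 ± 0.833 FPKM in Znf750 cKO and 16.2 ± 1.31 FPKM in Control.

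Matriptase transcripts were higher in Znf750 cKO without passing the threshold. St14 read 28.5, 28.9 and 28.9 FPKM in Znf750 cKO, against 22.4, 22.4 and 23.6 FPKM in Control. The libraries of each group lie within little more than 1 FPKM of each other and the groups do not overlap. Its log2 change of 0.32 (SE 0.09, 95% interval 0.11 to 0.53) had an unadjusted p of 0.0074 (limma adjusted p = 0.092). Of the other settings, it passed only after median-ratio rescaling, at a limma adjusted p of 0.048 and a log2 change of 0.41. Trimmed-mean factors gave 0.0527, and the removal of single libraries 0.14 to 0.23. Within each library, the ratio of Prss8 to St14 was 0.485, 0.414 and 0.532 in Znf750 cKO, against 1.11, 1.47 and 1.03 in Control. Prss8 was thus the higher of the pair in each Control library and the lower in each Znf750 cKO library.

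Tmprss13, a further transmembrane serine protease whose loss in mice impairs the forming skin barrier, read 26.1, 24.6 and 27.4 FPKM in Znf750 cKO, against 31.5, 35.2 and 28.9 FPKM in Control. The groups lie just apart, and the log2 change of -0.28 (95% interval -0.53 to -0.03) did not pass (limma adjusted p = 0.19). Tmprss13 shares 56 of 3245 exon bases with the antisense gene 1700003G13Rik, which stood at 0.863 ± 0.198 FPKM in Znf750 cKO and 1.98 ± 0.392 FPKM in Control. The 3 proteases together read 68.4, 65.4 and 71.6 FPKM in Znf750 cKO, against 78.8, 90.7 and 76.7 FPKM in Control.

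Neither Kunitz inhibitor passed. Spint2, the most abundant of the 10 genes, read 158, 175 and 143 FPKM in Znf750 cKO, against 158, 161 and 175 FPKM in Control. Spint1, which in mice restrains matriptase, read 30.6, 30.4 and 27.9 FPKM in Znf750 cKO, against 28.8, 30.7 and 29.7 FPKM in Control. Both genes overlap between the groups. The 95% interval of the log2 change was -0.31 to 0.20 for Spint2 and -0.22 to 0.21 for Spint1 (limma adjusted p = 0.84 and 0.98).

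Inhibitor transcripts were also set against those of the proteases. Spint2 stood 11.4, 14.7 and 9.33 times above Prss8 in Znf750 cKO libraries, against 6.34, 4.87 and 7.22 times in Control libraries. The ratio of Spint1 to St14 was 1.07, 1.05 and 0.965 in Znf750 cKO, against 1.29, 1.37 and 1.26 in Control. The ratio of both inhibitors to all 3 proteases overlapped, at 2.76 ± 0.375 in Znf750 cKO and 2.38 ± 0.279 in Control (SD, n = 3 each).

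Spink5 encodes LEKTI, a secreted inhibitor of kallikreins whose loss causes Netherton syndrome in humans. It read 51.0, 44.8 and 47.1 FPKM in Znf750 cKO, against 57.8, 82.2 and 67.3 FPKM in Control. The groups lie apart, with Control spread more widely. The log2 change of -0.51 (SE 0.14, 95% interval -0.83 to -0.20) had an unadjusted p of 0.0059 and did not pass (limma adjusted p = 0.082). Its targets Klk5 and Klk7 stood at 131 ± 15.4 and 214 ± 38.8 FPKM in Znf750 cKO, against 114 ± 37.8 and 190 ± 57.8 FPKM in Control, and neither passed. The ratio of Spink5 to Klk5 was 0.343, 0.362 and 0.390 in Znf750 cKO, against 0.712, 0.529 and 0.637 in Control.

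F2rl1 read 21.8, 18.1 and 20.3 FPKM in Znf750 cKO, against 19.5, 15.1 and 15.5 FPKM in Control. The groups overlap, and the log2 change of 0.26 (95% interval -0.05 to 0.56) did not pass (limma adjusted p = 0.32). F2r, the thrombin receptor gene nearest to it on chromosome 13, stood at 14.7 ± 0.812 FPKM in Znf750 cKO and 11.5 ± 2.28 FPKM in Control (adjusted p = 0.23).

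**Figure D3:**
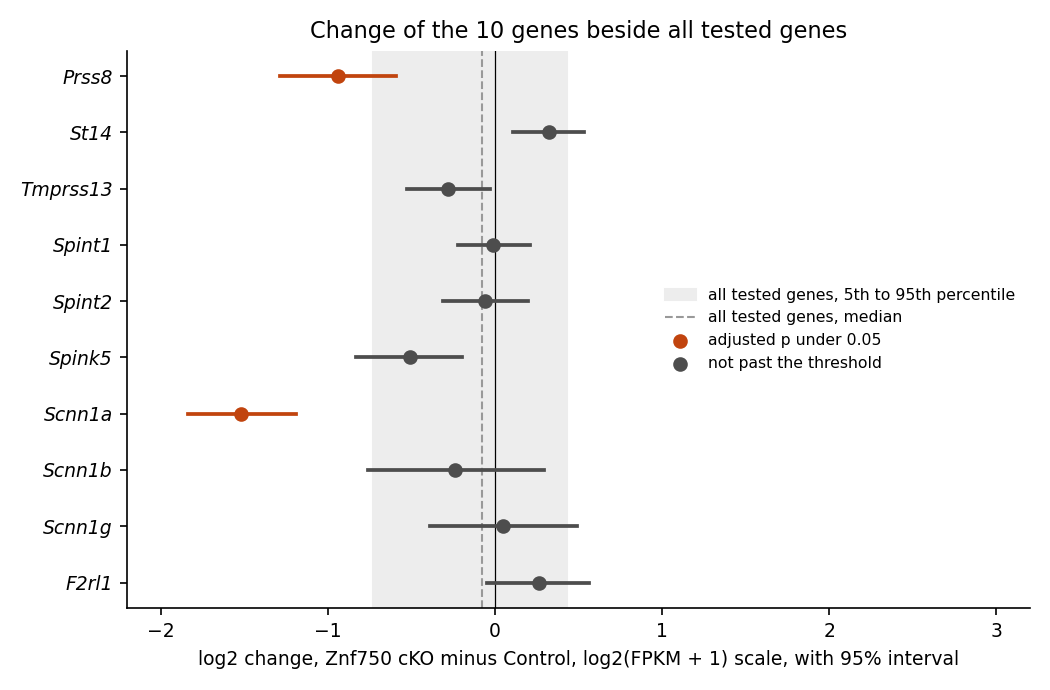
Log2 change of each of the 10 genes, Znf750 cKO minus Control on the log2(FPKM + 1) scale, with its 95% interval from limma. Red marks an adjusted p under 0.05, the grey band spans the 5th to 95th percentile of all tested genes, -0.73 to 0.43, and the dashed line is their median of -0.08. Scnn1a and Prss8 lie left of the band, and the intervals of Spint1, Spint2, Scnn1b, Scnn1g and F2rl1 cross 0.

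By mean level, the order in Znf750 cKO was Spint2, Spink5, Spint1, St14, Tmprss13, F2rl1, Prss8, Scnn1b, Scnn1g and Scnn1a. Of these neighbours only Spint1 and St14 overlapped between libraries. In Control the order was Spint2, Spink5, Tmprss13, Spint1, Prss8, St14, F2rl1, Scnn1b, Scnn1a and Scnn1g. There Tmprss13 and Spint1, Spint1 and Prss8, and Scnn1b and Scnn1a overlapped. Prss8 ranked above St14 and F2rl1 in Control and under both in Znf750 cKO.

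A list of 30 regulators and partners of the sodium channel held 21 tested genes, of which 1 rose, 2 fell and 18 did not pass. That is 14.3% called, beside 4.22% of all tested genes, with a median log2 change of -0.16. Fxyd5, a small membrane protein that binds the sodium pump, read 2.47, 2.38 and 2.31 FPKM in Znf750 cKO, against 19.6, 15.0 and 13.1 FPKM in Control. It was 6.65-fold lower in Znf750 cKO (log2 change -2.30, SE 0.16, limma adjusted p = 0.00062). Atp1b1, a beta subunit of the sodium pump, rose. It read 12.7, 7.31 and 12.5 FPKM in Znf750 cKO, against 2.20, 2.21 and 2.29 FPKM in Control (log2 change 1.84, SE 0.21, adjusted p = 0.0055), a level 4.86-fold higher in Znf750 cKO. Krt8 and Krt18 also rose, as given above, and their part in the Atp1b1 value was not tested. Another beta subunit, Atp1b3, stood at 109 ± 9.92 FPKM in Znf750 cKO and 107 ± 2.72 FPKM in Control and did not pass. Atp1b3 was thus the more abundant of this pair in both groups.

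Usp2, a deubiquitinating enzyme that opposes the removal of the channel from the membrane, fell. It read 10.6, 7.49 and 8.24 FPKM in Znf750 cKO, against 19.6, 24.2 and 15.0 FPKM in Control (log2 change -1.06, SE 0.19, limma adjusted p = 0.025). The blocked fit gave an adjusted p of 0.052, and the fit with no filter on low values 0.125. When single libraries were removed in turn, the call held in 1 of 6 cases, on removal of Control replicate 3. Nedd4l, the ubiquitin ligase that marks the channel for removal, stood at 11.2 ± 2.64 FPKM in Znf750 cKO and 12.8 ± 2.09 FPKM in Control, and Sgk1, the kinase that restrains Nedd4l, at 23.4 ± 3.75 FPKM in Znf750 cKO and 20.3 ± 3.29 FPKM in Control. Neither passed. Furin, the protease that cuts the channel during its transport, was at 26.6 ± 3.62 FPKM in Znf750 cKO and 27.3 ± 0.930 FPKM in Control (adjusted p = 0.89). Lgals3, a galectin gene and the most abundant of this list, stood at 372 ± 103 FPKM in Znf750 cKO and 503 ± 94.6 FPKM in Control (adjusted p = 0.30).

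**Figure D4:**
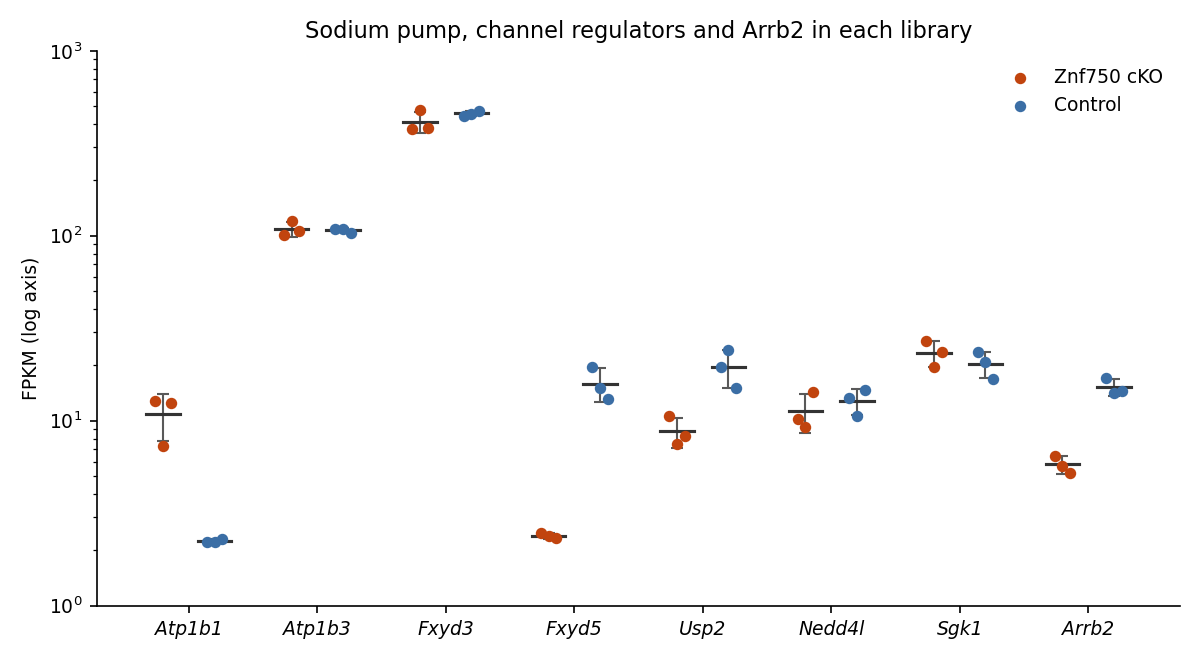
FPKM on a log axis of sodium pump genes, channel regulators and Arrb2 in each library, Znf750 cKO in red to the left of Control in blue, with lines for means and bars for SDs over 3 libraries. Fxyd5, Usp2 and Arrb2 are lower and Atp1b1 is higher in each Znf750 cKO library than in any Control library, while Nedd4l and Sgk1 overlap.

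Among 14 tested genes of 19 that act downstream of protease-activated receptor 2, 1 fell and 13 did not pass (7.14% called, beside 4.22% of all tested genes). Arrb2, the beta-arrestin that carries the activated receptor inward, read 6.46, 5.71 and 5.22 FPKM in Znf750 cKO, against 17.1, 14.1 and 14.5 FPKM in Control (log2 change -1.26, SE 0.13, limma adjusted p = 0.0039). The most abundant gene of the list, the small GTPase Rhoa, stood at 137 ± 6.51 FPKM in Znf750 cKO and 145 ± 10.8 FPKM in Control. Arrb2 and Fxyd5 are also transcribed in leukocytes, and 8 of 9 tested leukocyte markers fell with them, as given above. The part of that difference in the values of Arrb2 and Fxyd5 was not tested.

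Of 24 other membrane serine proteases, 7 were tested and none passed limma, with 1 at an unadjusted p under 0.05. The most abundant, Tmprss4, a transmembrane protease of epithelia, stood at 79.2 ± 20.2 FPKM in Znf750 cKO and 120 ± 12.9 FPKM in Control (log2 change -0.63, adjusted p = 0.12), so its transcripts exceeded those of Prss8, St14 and Tmprss13 in both groups. Of 10 secreted kallikreins 9 were tested, and Klk10 and Klk11 fell (22.2% called, beside 4.22% of all tested genes, median log2 change -0.59). Klk10 stood at 15.2 ± 1.33 FPKM in Znf750 cKO and 32.4 ± 5.44 FPKM in Control, and Klk11 at 31.0 ± 3.92 FPKM in Znf750 cKO and 54.2 ± 3.56 FPKM in Control (limma adjusted p = 0.012 and 0.016). The most abundant kallikrein was Klk7, given above. Both calls were lost without Znf750 cKO replicate 1, at adjusted p = 0.061 for Klk10 and 0.056 for Klk11. That of Klk11 was also lost without Control replicate 2 (0.062). With no filter on low values they stood at 0.068 and 0.081.

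Of 22 other inhibitors of trypsin-like proteases, 8 were tested and none passed, with 1 at an unadjusted p under 0.05. The most abundant, Serpinb6a, an intracellular serpin, stood at 69.6 ± 2.76 FPKM in Znf750 cKO and 64.0 ± 4.04 FPKM in Control. Of 17 substrates and receptors of these proteases, 13 were tested and none passed, with 6 at an unadjusted p under 0.05, 4 of them higher and 2 lower in Znf750 cKO. Of all tested genes 21.3% had an unadjusted p under 0.05. Flg, the filaggrin precursor whose processing depends on prostasin and matriptase in mice, was the most abundant, at 903 ± 135 FPKM in Znf750 cKO and 1656 ± 565 FPKM in Control (limma adjusted p = 0.10).

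**Figure D5:**
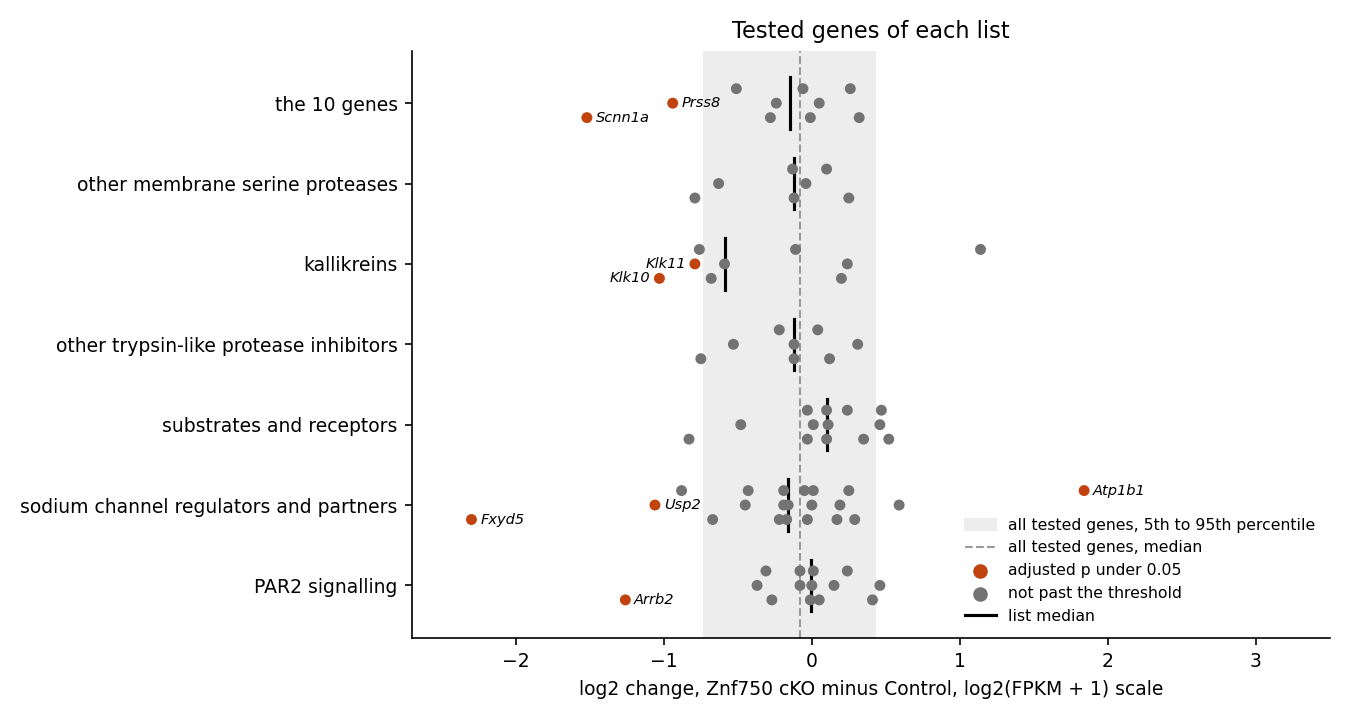
Log2 change, Znf750 cKO minus Control on the log2(FPKM + 1) scale, of each tested gene in the set of 10 and in 6 lists of related genes, with black lines for list medians. Red marks an adjusted p under 0.05, and the grey band spans the 5th to 95th percentile of all tested genes. The genes past the threshold are Scnn1a, Prss8, Klk10, Klk11, Fxyd5, Usp2 and Arrb2 on the low side and Atp1b1 on the high side.

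The nearest tested genes on the chromosomes were read beside the 10. Of 18 such neighbours, 1 passed, beside 4.22% of all tested genes, and their log2 changes ran from -0.83 to 0.40. The neighbour that passed was Ltbr, a receptor of the tumour necrosis factor family. Its start faces that of Scnn1a, with 6773 bases between the genes. Ltbr stood at 3.91 ± 0.452 FPKM in Znf750 cKO and 6.94 ± 0.382 FPKM in Control (log2 change -0.70, limma adjusted p = 0.031). On removal of any single library the call was lost, with adjusted p from 0.051 to 0.12. On the other side of Scnn1a, Tnfrsf1a stood at 68.2 ± 10.6 FPKM in Znf750 cKO and 51.5 ± 2.05 FPKM in Control (adjusted p = 0.13). Next to Prss8, the protease gene Prss36 stood at 1.66 ± 0.759 FPKM in Znf750 cKO and 3.67 ± 0.996 FPKM in Control (adjusted p = 0.11). The neighbour reading was added after the values were seen.

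The genes whose levels ran most like those of Scnn1a over the 6 libraries were Cd52, Ugt1a1, Tyrobp, Chga and Ankrd13d, with Pearson correlations of 0.9985, 0.9982, 0.9965, 0.9957 and 0.9952 on the log2(FPKM + 1) scale. These points share the group difference, and 323 tested genes had a correlation above 0.95 with Scnn1a. Cd52 and Tyrobp are leukocyte genes, Chga encodes a granule protein of neuroendocrine cells and Ugt1a1 an enzyme that conjugates bilirubin. Cd52 stood at 3.01 ± 0.085 FPKM in Znf750 cKO and 21.8 ± 3.02 FPKM in Control, and Ugt1a1 at 4.01 ± 0.0651 FPKM in Znf750 cKO and 16.1 ± 1.19 FPKM in Control. With each group's mean taken off, the closest were Gm23245, 2210017I01Rik, Sprr2a1, Mtbp and Mcf2l, at correlations of 0.9925 to 0.9904. They are the highest of 13688 tested genes over only 6 libraries, and whether such values exceed counting noise was not tested. None of these 5 passed the test between the groups. Ugt1a1 and Sprr2a1 share sequence with close relatives beside them, so their values are uncertain.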

How the data were processed

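The authors deposited FPKM per Ensembl gene for each of 6 libraries, per the file headers. The submitters' processing notes list, without roles, STAR (version 2.5.2a), RSEM (version 1.2.28), Trim Galore (version 0.4.5), cutadapt (version 1.15) and DESeq2, and name GRCm38 and mm10. The sources used here give no annotation release or filter.

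Symbols matched 55141 of 55487 identifiers, and 99.38% of identifiers are in GENCODE M21 (GRCm38), which gave coordinates and overlaps. Genes reaching 1 FPKM in 3 or more libraries entered the test, made with limma 3.58.1 (R 4.3.3, statmod 1.5.0, trended and robust variances, two-sided, group as the only term) on log2(FPKM + 1), with Benjamini-Hochberg adjustment over all tested genes. Plots used Python 3.11.15 and matplotlib 3.10.9. The members and the lists of related genes were chosen with earlier results of these data known. Genes were named by a fixed rule: each of the 10, each list gene past the threshold, the most abundant tested gene of each list, and the 5 genes most like the member with the smallest p. Others named beside them, Ltbr included, were picked after their values were seen.

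Depth came from genes of 1 transcript, where FPKM times the length less 99 bases steps by whole reads. Per library, 69.3% to 76.1% of such values lay within 0.1 read of a whole number at the best depth. These estimates entered no test.

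The labels number replicates 1 to 3 in both groups. After group means were taken off, like-numbered libraries correlated across genes at 0.31, 0.17 and 0.48 for replicates 1, 2 and 3. Each lay above 0.1, so a replicate block, the number as a term, was added in a second fit. Unlike-numbered libraries correlated at -0.39 to 0.24. The highest of these, Znf750 cKO replicate 2 with Control replicate 1, exceeds the value of replicate 2. What a number marks is not in the labels. Alternatives were other pseudocounts, filters, scalings and variance priors and the removal of each library, plus the removal of replicate 3 of both groups, chosen after seeing the data.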

Additional observations from a re-analysis of the deposited data

How the results depend on the processing

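Scnn1a kept its call in each of the 17 other settings, with log2 changes between -2.04 and -1.34 and limma adjusted p between 0.002 and 0.022. Atp1b1, Fxyd5 and Arrb2 also kept theirs in each. Over all genes 577 were called, 152 higher and 425 lower. With the replicate block 256 were lower. Members called lower then numbered 1, which was Scnn1a, and channel regulators called lower also numbered 1. Prss8 stood at -0.94 in that fit, with a limma adjusted p of 0.055. Among the 10 genes, the genes of the lists and Ltbr, the block ended the calls of Prss8 and Usp2 and no others. With no filter 85 were called (31 higher, 54 lower, 1 member lower, 0 kallikreins lower, 1 channel regulator lower), with Prss8 at -0.94 and an adjusted p of 0.095. More genes are then tested. Median-ratio rescaling gave 258 higher, 1 of them a member (St14, 0.41), trimmed-mean factors 249 higher, and quantile normalization 218 lower. The share of calls that were higher was 26.3% in the values as deposited, and 46.7%, 45.9% and 48.0% in these scalings. Without replicate 3 of both groups 95 were higher.

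With 1 library left out, 100 to 356 genes were called, 34 to 110 higher and 66 to 259 lower, lowest without Znf750 cKO replicate 1. Then 1 or 2 members, 0 to 3 kallikreins and 1 or 2 channel regulators were called lower. Prss8 ran from -1.02 to -0.806 and passed in 3 of 6.

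Changes near 0 turned sign. Spint1 was 0.0069 as TPM, 0.079 with median-ratio and 0.080 with trimmed-mean factors, 0.017 with quantile normalization, -0.0296 to 0.0359 with 1 library left out and 0.035 without replicate 3 of both groups. Spint2 was 0.032, 0.033 (median-ratio and trimmed-mean), -0.129 to 0.0145 and 0.059, and Scnn1g -0.0937 to 0.173 and -0.0045. The cause was not tested. Depth limits Scnn1a and Scnn1g most, at an estimated 99 and 111 reads in their lowest libraries.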
